A study of Mus musculus with 9 samples.

Results

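The genes described here are 6 mouse genes, Khdc3, Ooep, Dppa2, Dppa3, Dppa4 and Calcoco2, out of 54532 genes in a table of RNA-seq counts. They were found by matching their symbols to the table's Ensembl identifiers, and each symbol matched 1 gene. They had been picked with their differences between these same groups already known, so their levels and fold changes are given as a description with no p-value, and they support no claim about early embryo genes in general. All 6 passed the filter on low counts that left 16772 genes to test.

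The RNA came from neural tube organoids, small cultures grown clonally in Matrigel from the R1 line of mouse embryonic stem cells. Its genotype, FoxA2-Venus, makes a fluorescent protein report FoxA2. All 9 libraries were made from cells in N2B27 medium that was changed on Day 2 and sorted 66 h later with a GFP filter set. The 3 groups compared have n = 3 biological replicates each. The RA GFP- and RA GFP+ groups are the low and high sorts from medium with all-trans retinoic acid (RA), whose dose the sources give both as 250 nM and as 250 µM. The SAG GFP+ group is the high sort under SAG, a small molecule that activates Smoothened and with it hedgehog signalling, named in the sample titles with no dose. GFP- cells under SAG were not analysed here, so a difference between the SAG and RA groups is read only within the high sort or against the RA low sort. All groups share 1 parental line and its reporter, and no ungated organoid or undifferentiated stem cell culture was analysed here.

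Library totals ran from 25281871 to 29763765 counts. Expression is given as CPM, read counts relative to library size after scaling by edgeR's TMM factors, and summarised as mean ± SD over the 3 libraries of a group. Foxa2, the gene behind the sort, averaged 2.11 CPM in RA GFP-, 158 CPM in RA GFP+ and 248 CPM in SAG GFP+, and the neural tube markers Sox1, Pax6 and Nes were detected in every group. Of 8 neural tube markers, 3 were called higher and 4 lower in RA GFP+ than in RA GFP-, beside 8.49% higher and 8.43% lower over all tested genes. The 3 include Foxa2, whose reporter defined the sort, so its call is not read as support. SAG GFP+ replicate 1 lay apart from the other 2 libraries of its group on the third principal component, at 55 against -10 and -30.8, and values without it are given below.

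Khdc3 and Ooep encode KH domain proteins of the subcortical maternal complex, an assembly that the oocyte stores and that the embryo needs for its first cleavages. Dppa2 and Dppa4 encode SAP domain chromatin proteins that act as a pair and help switch on genes of the 2-cell stage, among them Dux and Zscan4. Dppa3, also called Stella, is a maternal protein that shields the egg's genome from demethylation and restrains the DNA methylation cofactor Uhrf1, and it marks naive stem cells and primordial germ cells. Calcoco2, also called NDP52, is a receptor that links cargo to the autophagy machinery and has no classical role in the early embryo, so the name early embryo genes covers the other 5. Most of these genes are read in mouse embryonic stem cells and are silenced as such cells differentiate.

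Khdc3 (ENSMUSG00000092622) lies on chromosome 9 at 73101836 to 73104438 on the plus strand in GRCm38, and Ooep (ENSMUSG00000032346) lies on the same chromosome at 78376109 to 78378725 on the minus strand. The sequences before their RefSeq starts are shown because these 2 genes code for partners in 1 complex and yet differed in opposite directions between the RA sorts. They are the only 2 of the 6 genes with an entry in the RefSeq promoter table used here (GRCm38.p6). Each line is written 5′ to 3′ in the gene's own direction, leaves out bases within annotated exons, and carries in capitals the CCAAT box, the letters CCAAT or their reverse complement ATTGG. The Khdc3 stretch is chr9:73102205-73102397 on the plus strand, 193 bases that end 1 base before the RefSeq start. It lies inside the annotated span of Khdc3, since another annotated transcript of the gene starts further upstream. The Ooep stretch is chr9:78378726-78378838 on the minus strand, 113 bases that lie 250 to 138 bases before the RefSeq start.
Khdc3: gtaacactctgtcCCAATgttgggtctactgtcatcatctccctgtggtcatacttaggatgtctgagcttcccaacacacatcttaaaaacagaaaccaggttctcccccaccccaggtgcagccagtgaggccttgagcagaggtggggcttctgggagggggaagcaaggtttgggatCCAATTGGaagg
Ooep: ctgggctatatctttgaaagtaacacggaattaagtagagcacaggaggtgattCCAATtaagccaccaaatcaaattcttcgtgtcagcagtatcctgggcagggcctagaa
In the full 250 bases before the start, CCAAT was found on either strand 4 times for Khdc3, with a pair of matches 12 and 9 bases before the start that overlap each other in CCAATTGG, and 1 time for Ooep. Of 32851 RefSeq promoters of the same length, 33.8% held at least 1. Khdc3 had 0 CpG dinucleotides in those 250 bases and Ooep had 11, against a median of 6 over all promoters, and their GC contents were 52.4% and 57.2%. Of the 11 in Ooep, 2 lay in the 113 bases printed above and the rest lay within an annotated exon of the gene. Neither stretch of 250 bases held the letters CACGTG (an E-box, in 6.02% of promoters), ATGCAAAT (an octamer, 1.6%), TGTTTAC (a FOXA motif, 3.17%), GACCACCCA (a GLI motif, 0.225%) or the direct repeat of AGGTCA with 5 bases between (a retinoic acid response element, 0.00913%). These are matches of letters in a window and say nothing of what binds there.

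Khdc3 was the only one of the 6 genes with more RNA in the RA GFP+ sort than in the RA GFP- sort. Its RA GFP- libraries, replicates 1 to 3 in that order here and below, had 3.04, 1.37 and 2.28 CPM against 21.0, 12.0 and 14.0 CPM in RA GFP+ and 0, 0.0375 and 0 CPM in SAG GFP+. The groups did not overlap, and all 3 SAG libraries together held 1 read for the gene. The RA GFP+ mean of 15.7 ± 4.71 CPM (SD, n = 3) lay above the RA GFP- mean of 2.23 ± 0.833 CPM (SD, n = 3), and the fitted log2 difference was 2.81 (SE 0.37), or 6.99-fold. The ratio of RA GFP+ to SAG GFP+ was 1180 by counts (exact 95% interval 212 to 46800), and that of RA GFP- to SAG GFP+ was 173 (30.7 to 6880). These intervals cover counting error only, and rest on the 1 read. Khdc3 shares 790 of its 2050 exon bases (38.5%) with Gm20509, an annotated gene on the same strand, which was listed at 0 in all 9 libraries while Khdc3 received 1476 counts. How the authors' counting treated reads in shared exons is not given in the sources used here, so the level of Khdc3 is uncertain in that respect.

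Ooep, the partner of Khdc3 in the maternal complex, was high only in the RA GFP- sort. It stood at 15, 7.2 and 13.6 CPM in RA GFP-, at 0.431, 0.403 and 0.837 CPM in RA GFP+, and had 0 counts in each SAG GFP+ library. Every RA GFP- library was above every RA GFP+ library. The means were 11.9 ± 4.14 and 0.557 ± 0.243 CPM (SD, n = 3 each), and the fitted log2 difference was -4.40 (SE 0.44), or 21.2-fold. Against the 3 counts over the SAG group that a count of 0 allows, 0.039 CPM, the SAG GFP+ level was at least 14.3-fold lower than in RA GFP+ and at least 305-fold lower than in RA GFP-. The ratio of Khdc3 to Ooep, each per kilobase of exon, was 0.212, 0.199 and 0.176 in the RA GFP- libraries and 50.7, 31.1 and 17.4 in the RA GFP+ libraries. So the low sort held more Ooep RNA per length than Khdc3 RNA in every library, and the high sort held more Khdc3 RNA.

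**Figure D1:**
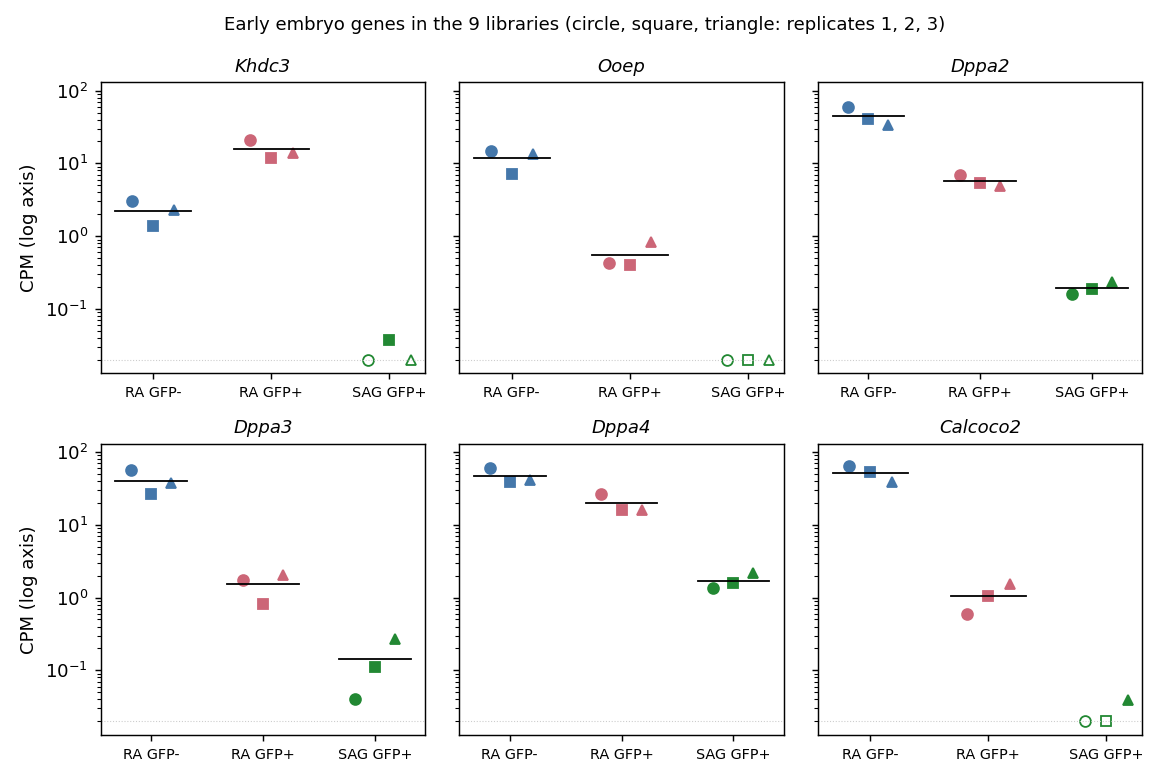
CPM on a log axis for each of the 6 genes in the 9 libraries, by group, with circles, squares and triangles for replicates 1, 2 and 3, black bars at the group mean, and open symbols on the dotted line for libraries with 0 counts. Khdc3 peaks in RA GFP+, the other 5 step down from RA GFP- to RA GFP+ to SAG GFP+, and no 2 groups of a gene overlap.

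The Dppa genes all stepped down from RA GFP- to RA GFP+ and again to SAG GFP+, by unequal amounts. Dppa2 (ENSMUSG00000072419, chromosome 16, 48303908 to 48319723, plus strand) stood at 58.9, 41.1 and 33.3 CPM in RA GFP-, at 6.9, 5.38 and 4.92 CPM in RA GFP+, and at 0.163, 0.187 and 0.234 CPM in SAG GFP+. Its log2 difference was -2.96 (SE 0.24) between the RA sorts and -4.84 (SE 0.33) between SAG GFP+ and RA GFP+, or 7.76-fold and 28.7-fold. The SAG libraries held 4, 5 and 6 reads of Dppa2, a low but detectable level.

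Dppa4 (ENSMUSG00000058550, chromosome 16, 48283733 to 48294237, plus strand), whose protein pairs with that of Dppa2, kept the most RNA of the 5 lower genes in RA GFP+. It stood at 59.4, 38.6 and 41.4 CPM in RA GFP-, at 26.6, 16.2 and 16.1 CPM in RA GFP+, and at 1.34, 1.61 and 2.18 CPM in SAG GFP+. The log2 difference between the RA sorts was -1.24 (SE 0.25), or 2.37-fold, and the lowest RA GFP- library lay above the highest RA GFP+ library. Between SAG GFP+ and RA GFP+ the log2 difference was -3.52 (SE 0.29), or 11.4-fold. Dppa4 was also the only one of the 6 with over 1 CPM in every SAG library, at 33, 43 and 56 reads.

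Since the Dppa2 and Dppa4 proteins work together, their RNA ratio was followed across groups. Per kilobase of exon, Dppa4 over Dppa2 was 1.48, 1.38 and 1.83 in RA GFP- (1.57 ± 0.236, SD, n = 3) and 5.68, 4.44 and 4.83 in RA GFP+ (4.98 ± 0.636). In SAG GFP+ it was 12.1, 12.7 and 13.7 (12.9 ± 0.814). The ratio was thus higher where both genes were lower, and its 3 groups did not overlap. In SAG GFP+ it rests on at most 6 reads of Dppa2 per library.

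**Figure D2:**
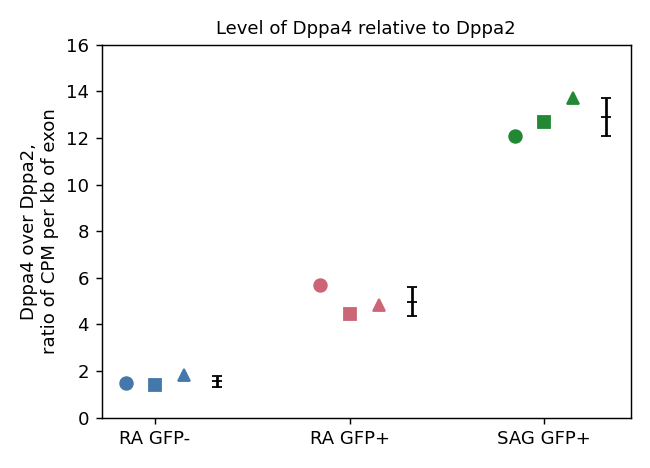
Ratio of Dppa4 to Dppa2, each in CPM per kilobase of exon on a linear axis from 0, in the 9 libraries (circles, squares and triangles for replicates 1, 2 and 3), with the mean and SD of each group as bars. The ratio lies between 1.38 and 1.83 in RA GFP-, between 4.44 and 5.68 in RA GFP+ and between 12.1 and 13.7 in SAG GFP+.

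Dppa3 (ENSMUSG00000046323, chromosome 6, 122626410 to 122630272, plus strand) stood at 55.8, 26.6 and 37.9 CPM in RA GFP-, at 1.76, 0.807 and 2.02 CPM in RA GFP+, and at 0.0407, 0.112 and 0.273 CPM in SAG GFP+. It differed more between the RA sorts than Dppa2 or Dppa4 did, at a log2 difference of -4.71 (SE 0.42) or 26.2-fold. Between SAG GFP+ and RA GFP+ the log2 difference was -3.38 (SE 0.58), or 10.4-fold, on 1, 3 and 7 SAG reads.

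Calcoco2 (ENSMUSG00000006056, chromosome 11, 96099326 to 96111964, minus strand), the autophagy receptor, had the widest gap of the 6 between the RA sorts. It stood at 63.3, 53.6 and 38.6 CPM in RA GFP- and at 0.588, 1.04 and 1.53 CPM in RA GFP+, a log2 difference of -5.60 (SE 0.35) or 48.5-fold. In SAG GFP+ it had 0, 0 and 1 reads, so that the count ratio of RA GFP+ to SAG GFP+ was 82.5 with an exact 95% interval of 14.4 to 3290. The counts place Calcoco2 with Ooep and Khdc3 among the genes at or near 0 under SAG.

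Across the 6 genes, 1 was called higher and 5 were called lower in RA GFP+ than in RA GFP-, where 16.9% of all tested genes were called by edgeR's quasi-likelihood test (8.49% higher, 8.43% lower), and the libraries did not overlap for 6 of 6 genes, as they did not for 36.4% of tested genes. In SAG GFP+ against RA GFP+ all 6 were called lower, with 24.5% of tested genes called (9.78% higher, 14.8% lower) and 42.9% not overlapping. In SAG GFP+ against RA GFP- all 6 were again called lower, with 28.5% called (12% higher, 16.5% lower) and 41.1% not overlapping. The genes were chosen on such differences, so nothing is read from these counts. The median log2 difference of the 6 was -3.68 between the RA sorts against -0.018 over all tested genes. It was -4.34 between the GFP+ groups against -0.017 over all tested genes, with the 3 genes of at most 1 SAG read taken at their bound or count ratio (-5.38 as fitted). Leaving out SAG GFP+ replicate 1, the log2 difference between the GFP+ groups was -4.72 for Dppa2, -2.95 for Dppa3 and -3.35 for Dppa4. Measured against RA GFP-, the SAG GFP+ level was 223-fold lower for Dppa2, 272-fold lower for Dppa3 and 27.1-fold lower for Dppa4, the smallest of these 3. The comparisons share libraries with one another, and fewer cells of a type cannot be told apart from less RNA per cell in sorted bulk samples such as these.

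The order of the genes by level differed between groups. In RA GFP-, in CPM per kilobase of exon, Dppa3 led at a mean of 45.0 (29.9 to 62.6 over the libraries), followed by Calcoco2 at 32 (23.8 to 39.0), Dppa4 at 28.0 (23.2 to 35.7) and Dppa2 at 18.2 (13.6 to 24.1). Neighbours among these 4 overlapped in range. Ooep at 5.57 (3.37 to 7.0) lay below them, and Khdc3 at 1.09 (0.669 to 1.48) lay lowest, each apart from the gene above. In RA GFP+ the order was Dppa4 at 11.8 (9.72 to 16), Khdc3 at 7.63 (5.87 to 10.2), Dppa2 at 2.34 (2.01 to 2.82), Dppa3 at 1.72 (0.904 to 2.27), Calcoco2 at 0.651 (0.363 to 0.947) and Ooep at 0.261 (0.189 to 0.392). Of the neighbours in that order, Khdc3 and Dppa2 alone did not overlap. In SAG GFP+ Dppa4 led at 1.03 (0.809 to 1.31), and the other 5 genes averaged 0.159 or less per kilobase. Khdc3 thus moved from last place in the low RA sort to the second in the high RA sort.

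The replicate numbers paired the RA libraries, as described with the processing, so each number gives its own ratio of GFP+ to GFP-. For Khdc3 these ratios were 6.91, 8.77 and 6.11 in replicates 1 to 3. Dppa4 in RA GFP+ stood at 44.8, 42.0 and 39.0% of its RA GFP- level and Dppa2 at 11.7, 13.1 and 14.8%. Ooep stood at 2.88, 5.6 and 6.18% and Dppa3 at 3.16, 3.03 and 5.34%. Calcoco2 varied the most between numbers, at 0.929, 1.94 and 3.98%. Replicate 1 was the highest RA GFP- library for all 6 genes. The ratios of Dppa4 and Dppa2 were the most even across numbers, and no gene changed direction in any of them.

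**Figure D3:**
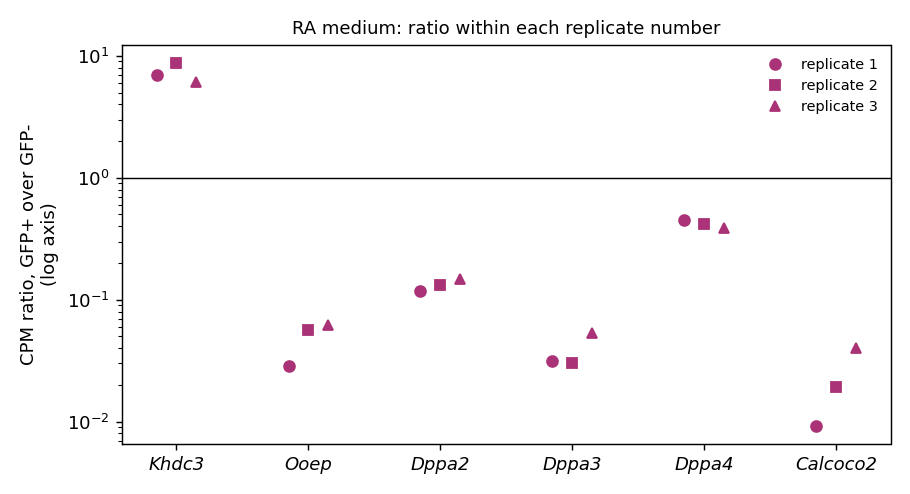
Ratio of CPM in RA GFP+ to CPM in RA GFP- within each replicate number (circles, squares and triangles for replicates 1, 2 and 3), on a log axis with a line at equal levels. Khdc3 lies above the line at 6.11 to 8.77 and the other 5 genes lie below it in all 3 replicates.

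How alike 2 genes were was measured as the root-mean-square difference of their mean-centred log2 CPM over the 9 libraries, where 0 is the same pattern. Among the 6 genes, Dppa3 and Ooep were closest at 0.495, and Dppa2 was closer to Ooep (0.785) than to Dppa4 (1.1). Khdc3 was the farthest from the rest, between 1.93 from Dppa4 and 3.48 from Calcoco2. The prior count of 2 used for log2 CPM holds up the level of genes at or near 0 counts, such as Ooep in SAG GFP+. Distances between such genes and others are therefore limited by that setting. The 9 libraries of these distances fall into the same 3 groups for every gene, so the distances are a description and carry no test.

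Of all other tested genes, Prdm14, a regulator of naive pluripotency and of germ cell fate, was closest to Ooep (0.29) and to Dppa3 (0.422). It averaged 13.6, 0.518 and 0 CPM in RA GFP-, RA GFP+ and SAG GFP+. For Dppa2 the closest 5 were Dusp27 (0.417), Dazl (0.438), Gm5039 (0.441), Cd37 (0.442) and Morc1 (0.446). Dazl is a germ cell RNA-binding protein, and Morc1, a germ line repressor of transposons, averaged 22.9, 2.56 and 0.106 CPM and lies 111514 bases from Dppa2 on chromosome 16. For Dppa4 genes among the closest were Gm9112 (0.309), CN725425 (0.385), Gm14058 (0.398) and Esx1 (0.398). For Calcoco2 the nearest was the aquaporin gene Aqp3 (0.622), at 47.8, 2.12 and 0.118 CPM, which was also among the 5 nearest to Ooep (0.556) and Dppa3 (0.694). For Khdc3 the nearest were Cpm (0.559), Fndc1 (0.573), Aldh3b2 (0.612) and Fbxo40 (0.663), and Cpm, which encodes carboxypeptidase M, averaged 33.9, 307 and 2.75 CPM. None of these 4 was among the 5 nearest to another of the 6.

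The nearest annotated protein-coding genes on either side were then read, since Dppa4 and Dppa2 lie 9671 bases apart and Ooep and Dppa3 lie near other embryonic genes. Beside Ooep, at 7932 bases, lies Dppa5a, a KH domain gene of pluripotent cells. It averaged 165, 13.1 and 0.793 CPM in the 3 groups and fell by 3.66 on the log2 scale between the RA sorts (SE 0.29, adjusted p = 1.55e-05, edgeR quasi-likelihood test with Benjamini-Hochberg adjustment). It fell by a further 4.05 in SAG GFP+ against RA GFP+ (SE 0.34, adjusted p = 1.52e-05, same test). So Dppa5a stepped down in both comparisons, as Ooep did, from a higher level. Of the other listed Dppa and Khdc1 genes, Dppa1 and Khdc1b were at 0 in every group, and Khdc1a and Khdc1c, at no more than 0.202 and 0.198 CPM, were too low to test. On the other side of Ooep, Ddx43 at 17052 bases averaged 2.1, 0.689 and 0.271 CPM and fell by 1.59 between the RA sorts (SE 0.48, adjusted p = 0.0401, same test). That call ended when any 1 of the RA GFP- libraries, replicate 1 or 3 of RA GFP+, or replicate 2 of SAG GFP+ was left out, with an adjusted p of up to 0.143. Ddx43 also passed the filter on low counts only through its RA GFP- libraries, where it was high, so the call is not read as support.

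Beside Dppa3 lie Gdf3 (16323 bases), a growth factor of the TGF-beta family, and Nanog (77217 bases), a core regulator of pluripotency. Gdf3 averaged 40.7, 6.21 and 1.89 CPM and fell by 2.72 between the RA sorts (SE 0.45, adjusted p = 0.00179, edgeR quasi-likelihood test with Benjamini-Hochberg adjustment). In SAG GFP+ against RA GFP+ it fell by 1.72 (SE 0.47, adjusted p = 0.0206). This call depended on 3 single libraries, and the adjusted p became 0.0931 with RA GFP+ replicate 1 left out, 0.0827 with SAG GFP+ replicate 2 left out and 0.0809 with SAG GFP+ replicate 3 left out. Nanog fell by 4.67 between the RA sorts (SE 0.42, adjusted p = 3.65e-05), close to the -4.71 of Dppa3, but was higher in SAG GFP+ than in RA GFP+ by 1.51 (SE 0.38, adjusted p = 0.0136). Nanog averaged 189, 7.45 and 21.2 CPM, so it and Dppa3 differed in opposite directions between the GFP+ groups.

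Of the 5 tested neighbours of Khdc3, Calcoco2 and the Dppa4-Dppa2 pair, 1 was called between the RA sorts, beside 16.9% of all tested genes, so nothing is read from this count. Rab27a, a vesicle transport GTPase 4207 bases from Khdc3, averaged 14.3, 11.1 and 3.29 CPM. It was not called between the RA sorts (log2 difference -0.37, adjusted p = 0.313, edgeR quasi-likelihood test with Benjamini-Hochberg adjustment) and fell by 1.75 in SAG GFP+ against RA GFP+ (SE 0.24, adjusted p = 0.000313). Rsl24d1, a ribosome assembly gene 8988 bases away on the other side, averaged 76.8, 65.8 and 62.3 CPM and was called in neither comparison. Ttll6, 21822 bases from Calcoco2, averaged 5.41, 0.412 and 0.159 CPM and fell by 3.71 between the RA sorts (SE 0.69, adjusted p = 0.00356). It passed the filter on low counts only through its RA GFP- libraries, where it was high, so its call is not read as support. Atp5g1 at 23656 bases, a subunit gene of ATP synthase, averaged 66.1, 45.8 and 44.7 CPM and was not called between the RA sorts (adjusted p = 0.0915, and 0.00551 with the replicate block in a fit of the 6 RA libraries). Nectin3, 1785208 bases from Dppa4, averaged 123, 122 and 145 CPM and was not called, and Gm5485, beyond Dppa2, was listed at 0 in all groups.

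**Figure D4:**
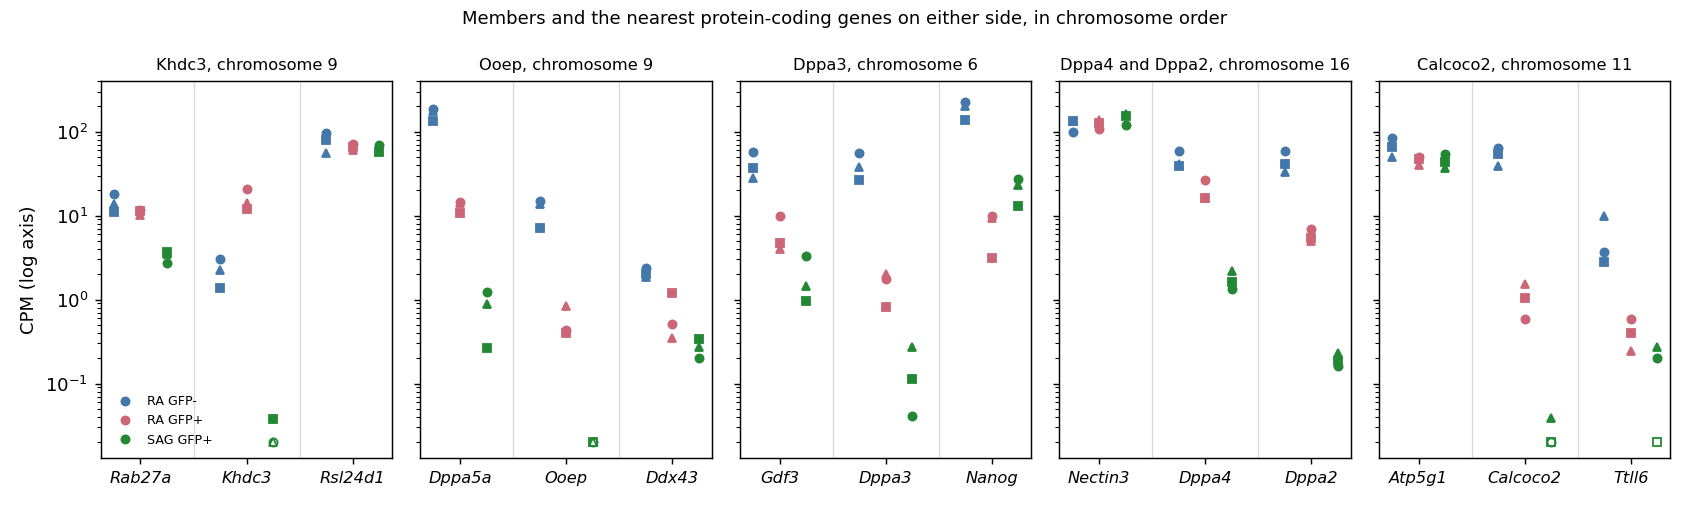
CPM on a log axis of the 6 genes and of the nearest protein-coding genes beside them, in chromosome order within each panel, for RA GFP- (blue), RA GFP+ (red) and SAG GFP+ (green), with circles, squares and triangles for replicates 1, 2 and 3 and open symbols for 0 counts. Dppa5a, Gdf3 and Nanog lie lower in RA GFP+ than in RA GFP-, whereas Rsl24d1 and Nectin3 overlap between the 3 groups.

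Genes known to work with these 6 were read from the same test. Of the other 6 genes listed for the subcortical maternal complex and its relatives, Nlrp5 and Nlrp2 were at 0 counts in all groups and Padi6 averaged 0.111 CPM or less, which left 3 to test. Tle6, a core member of the complex, averaged 20.0, 10.3 and 2.93 CPM in RA GFP-, RA GFP+ and SAG GFP+. It fell by 0.96 between the RA sorts (SE 0.23, adjusted p = 0.0152, edgeR quasi-likelihood test with Benjamini-Hochberg adjustment) and by 1.81 in SAG GFP+ against RA GFP+ (SE 0.25, adjusted p = 0.000341). The first of these calls rested on replicate 3, since leaving it out of RA GFP- gave an adjusted p of 0.0546 and leaving it out of RA GFP+ gave 0.0585. Nlrp4f fell between the GFP+ groups (log2 difference -3.30, SE 1.04, adjusted p = 0.0385) on 25 against 2 counts. Its call ended when RA GFP- replicate 2, RA GFP+ replicate 1 or 2, or SAG GFP+ replicate 1 or 3 was left out, with an adjusted p of up to 0.123. Zbed3 was not called in either comparison. So 1 of 3 was called lower between the RA sorts (median -0.96) and 2 of 3 between the GFP+ groups (median -1.81), where 8.43% and 14.8% of all tested genes were. Nlrp4f passed the filter on low counts only through RA libraries, so its lower call under SAG is not read as support. A fit of only the 2 GFP+ groups tested 2 of the 6 and called 1 lower, beside 14.3% of tested genes in that fit. In the blocked fit of the 6 RA libraries 2 of 3 were called lower, where 16.1% of tested genes were. Nlrp5, without which the complex does not assemble in oocytes, gave no read in any library.

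The oocyte list held 10 genes, and its summed level was 4.23 to 8.26 CPM per library in RA GFP-, 1.08 to 2.12 CPM in RA GFP+ and 1.57 to 1.99 CPM in SAG GFP+. The egg coat gene Zp2 and the oocyte gene Oosp1 were at 0 in every group. Of the 3 tested, Zp3 alone was called between the RA sorts, which fell by 4.55 (SE 0.70, adjusted p = 0.00115, edgeR quasi-likelihood test with Benjamini-Hochberg adjustment), and the list's median was -0.14. Zp3 passed the filter on low counts only through its RA GFP- libraries. Between the GFP+ groups none of the 3 was called by that test, nor was any at an unadjusted p under 0.05 (the lowest was 0.0622, for Zp3).

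Dppa2 and Dppa4 act on genes of the 2-cell stage. Of 12 such genes listed, 9 were tested, and these 9 were called lower in RA GFP+ than in RA GFP- (median log2 difference -2.73), beside 8.43% of all tested genes. Of the 9, 7 passed the filter on low counts only through their RA GFP- libraries, where they were high, and so had to differ, and the count and the median are not read as support. Of the 3 that were not tested, Tcstv1 averaged 0.0254 CPM in RA GFP- and 0.0838 CPM in RA GFP+. Zscan4e, from a cluster of near-identical copies whose counts are uncertain for that reason, averaged 4.05 and 0.623 CPM and fell by 2.69 (SE 0.44, adjusted p = 0.00287, edgeR quasi-likelihood test with Benjamini-Hochberg adjustment), and Zfp352 averaged 0.787 and 0.0475 CPM and fell by 3.92 (SE 0.67, adjusted p = 0.00353). Duxf3, the gene that encodes Dux, was at 0.808 CPM in RA GFP-, 0.117 CPM in RA GFP+ and 0 counts in SAG GFP+. In SAG GFP+ against RA GFP+ 8 of 9 were called lower, beside 14.8% of all tested genes, with a median of -3.28 when genes with at most 3 SAG counts were taken at their bound or count ratio (-5.80 as fitted). A fit of only those 6 libraries tested 2 of the 12 and called both lower. Both passed its filter only through RA GFP+, where they were higher, so these calls are not read as support. The summed level of the 12 genes was 18.6 to 47.5 CPM per library in RA GFP-, 3.25 to 6.59 CPM in RA GFP+ and at most 0.326 CPM in SAG GFP+.

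Dppa3 acts on DNA methylation through Uhrf1. Uhrf1 averaged 464, 374 and 314 CPM in RA GFP-, RA GFP+ and SAG GFP+. In the fit of all 9 libraries, without the replicate block, Uhrf1 was called in neither of the first 2 comparisons (adjusted p = 0.206 and 0.257, edgeR quasi-likelihood test with Benjamini-Hochberg adjustment). Its RA GFP- libraries, at 440, 503 and 450 CPM, lay above its RA GFP+ libraries, at 390, 372 and 361 CPM. The RA sorts did not overlap for 36.4% of all tested genes. In SAG GFP+ against RA GFP- it was called lower (log2 difference -0.57, SE 0.15, adjusted p = 0.0178, same test). Of 8 writers, readers and erasers of DNA methylation, 1 rose and 3 fell between the RA sorts (median -0.36), beside 8.49% higher and 8.43% lower over all tested genes. The one that rose, Tet3, was no longer called when replicate 2 of either RA sort, or replicate 3 of the high one, was left out. Dnmt3l, a cofactor of de novo methylation, averaged 149, 36.2 and 0.552 CPM, and fell by 2.04 (SE 0.27, adjusted p = 0.000471) and by a further 6.01 in SAG GFP+ against RA GFP+ (SE 0.37, adjusted p = 2.37e-06). Its steps thus ran in the same direction as those of Dppa3. The demethylase gene Tet1 fell by 0.91 between the RA sorts (SE 0.23, adjusted p = 0.0182). That call needed each of 3 libraries, and the adjusted p became 0.0682 when RA GFP- replicate 3 was dropped, 0.0707 when RA GFP+ replicate 1 was dropped and 0.0763 when RA GFP+ replicate 2 was dropped. With any 1 of those 3 dropped, 1 of the 8 was called lower, and with the replicate number as a block in a fit of the 6 RA libraries 5 were, beside 16.1% of tested genes in that fit. Tet1 averaged 199, 106 and 186 CPM in the 3 groups, and was higher in SAG GFP+ than in RA GFP+ by 0.82 (SE 0.23, adjusted p = 0.0235), opposite in direction to Dppa3. In that comparison none of the 8 was called higher when RA GFP+ replicate 1 or 2, or SAG GFP+ replicate 3, was left out. Other alternatives called more of them higher. The number was 4 with either replicate block, and 3 with no filter or without RA GFP- replicate 1. It was 2 with DESeq2, in a fit of only the 2 GFP+ groups, and without RA GFP+ replicate 3 or SAG GFP+ replicate 1.

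Most other genes of selective autophagy, the process Calcoco2 serves, did not pass the test. Of 12 listed, 2 rose and 1 fell between the RA sorts (median 0.08), beside 8.49% higher and 8.43% lower over all tested genes. The paralogue Calcoco1 averaged 37.3, 65.7 and 34.5 CPM and rose by 0.82 in RA GFP+ against RA GFP- (SE 0.14, adjusted p = 0.00262, edgeR quasi-likelihood test with Benjamini-Hochberg adjustment), the direction opposite to that of Calcoco2. Gabarapl2, which encodes a protein of the family that autophagy receptors bind, fell by 1.11 (SE 0.22, adjusted p = 0.00464). The receptor gene Sqstm1 averaged 229, 246 and 82.4 CPM, was not called between the RA sorts and fell by 1.58 in SAG GFP+ against RA GFP+ (SE 0.23, adjusted p = 0.000534), where 3 of the 12 fell, beside 14.8% of all tested genes. The other called member, Map1lc3b, rose between the RA sorts by 0.44 (SE 0.13, adjusted p = 0.0423) in the fit of all 9 libraries, and the number called higher was 1 in 10 of the alternatives.

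**Figure D5:**
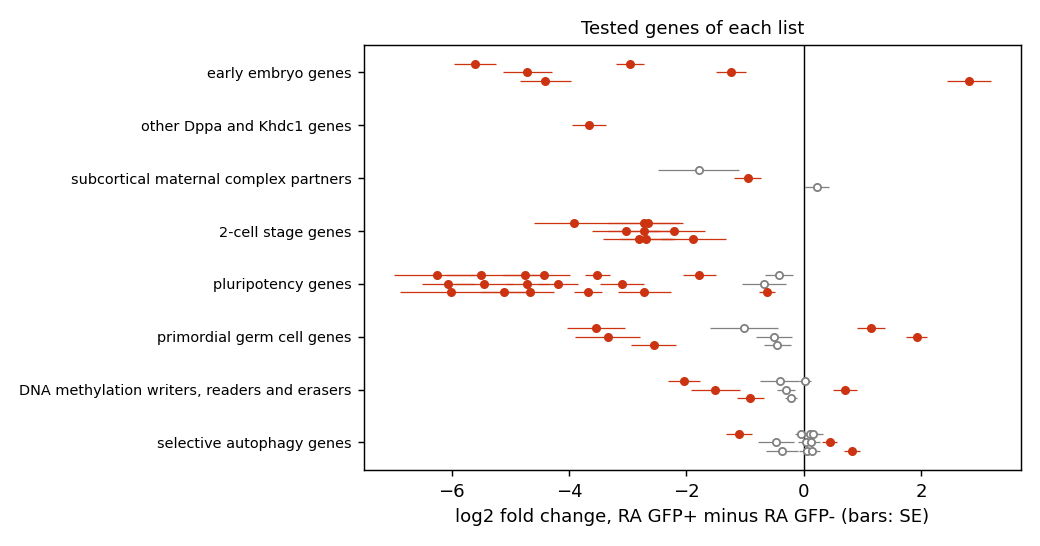
Log2 fold change of RA GFP+ against RA GFP- with its SE for the 6 genes (top line) and for every tested gene of 7 lists, with filled red points for genes called by edgeR and open grey points for the others. The 2-cell stage genes and most pluripotency genes lie left of 0 with 5 of the 6 genes, Khdc3 lies to the right, and the autophagy genes lie around 0.

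Markers of undifferentiated pluripotent cells moved with the 5 lower genes between the RA sorts. All 19 were tested and 17 fell (median -4.43), beside 8.43% of all tested genes, and 3 of the 19 passed the filter on low counts only through RA GFP-. Their summed level was 1580 to 2370 CPM per library in RA GFP-, 321 to 377 CPM in RA GFP+ and 419 to 576 CPM in SAG GFP+. Sox2, which neural progenitors also express, made up much of this, and without it the sums were 1250 to 1950, 96.3 to 118 and 81.1 to 263 CPM. Among the defining markers, Pou5f1 averaged 231, 5.14 and 82.5 CPM and Nanog 189, 7.45 and 21.2 CPM, and Prdm14 was the only one at 0 counts in SAG GFP+. Between the GFP+ groups the markers split, with 5 higher and 8 lower in SAG GFP+ (median -0.50), beside 9.78% higher and 14.8% lower over all tested genes. Pou5f1 rose there by 4.0 (SE 0.57, adjusted p = 0.000442, edgeR quasi-likelihood test with Benjamini-Hochberg adjustment), while all 6 genes described here were lower. Its SAG libraries held 171, 37.4 and 39.3 CPM, with replicate 1 well above the other 2, and all 3 lay above the RA GFP+ libraries at 5.02, 3.7 and 6.7 CPM. The number higher was 3 with replicate 1 or replicate 2 of RA GFP+ left out, and the number lower was 5 with replicate 2 or replicate 3 of SAG GFP+ left out. A fit of only the 2 GFP+ groups tested 16 of the 19 and called 5 higher and 6 lower. Over all tested genes in that fit, 11.6% were called higher and 14.3% lower. The part of such cells in the levels of the 6 genes was not tested.

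Dppa3 also marks primordial germ cells, and 8 genes of that lineage were mixed. Between the RA sorts 2 rose and 3 fell (median -0.76), beside 8.49% higher and 8.43% lower over all tested genes. In the blocked fit of the 6 RA libraries 6 were lower, beside 16.1% of tested genes. Prdm1, which encodes the germ cell specifier Blimp1, averaged 24.9, 94.3 and 6.75 CPM, and rose by 1.92 in RA GFP+ (SE 0.18, adjusted p = 4.73e-05, edgeR quasi-likelihood test with Benjamini-Hochberg adjustment). Ddx4 averaged 10.2, 22.3 and 1.24 CPM and rose by 1.14 (SE 0.24, adjusted p = 0.00737), so both were higher in RA GFP+ and low in SAG GFP+, the order in which Khdc3 stood. Nanos3 (0.42 against 4.87 CPM) and Dazl (2.46 against 14.5 CPM) fell with the other 5 genes. Nanos3 passed the filter on low counts only through its RA GFP- libraries, where it was high, so its call is not read as support. In SAG GFP+ against RA GFP+ 5 of the 8 fell (median -2.56), beside 14.8% of all tested genes, and Dazl was at 0 counts in SAG GFP+. The summed level of the list was 216 to 320 CPM in RA GFP-, 195 to 239 CPM in RA GFP+ and 87.6 to 120 CPM in SAG GFP+, and its part in the levels of the 6 genes was not tested.

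Some markers of primitive endoderm and trophoblast were higher in RA GFP+, as Khdc3 was, and others were not. Of 8 listed, 7 were tested, and Gata4, Gata6, Pdgfra and Krt8, 4 in all, rose in RA GFP+ against RA GFP- (median 1.23), beside 8.49% of all tested genes, or 2 when either RA GFP- replicate 3 or RA GFP+ replicate 1 was left out. Gata6 averaged 0.639, 6.33 and 1.24 CPM in RA GFP-, RA GFP+ and SAG GFP+, and rose by 3.30 between the RA sorts (SE 0.61, adjusted p = 0.00336, edgeR quasi-likelihood test with Benjamini-Hochberg adjustment). Against RA GFP+ it fell by 2.36 in SAG GFP+ (SE 0.58, adjusted p = 0.0114). The summed level of the 8 was 33.0 to 69.0 CPM per library in RA GFP-, 101 to 135 CPM in RA GFP+ and 25.5 to 78.0 CPM in SAG GFP+, of which Krt8, a keratin gene of simple epithelia, averaged 32.5, 71.0 and 7.02 CPM. The trophoblast regulator Eomes averaged 7.99 CPM in RA GFP- and 2.92 CPM in RA GFP+ (adjusted p = 0.184, same test). Cdx2 averaged 5.75 and 10 CPM (adjusted p = 0.561, same test), so neither was called in the fit of all 9 libraries. With the replicate block in a fit of the 6 RA libraries, all 7 tested genes were called. Of these 6 were higher and 1 was lower, beside 16.1% higher and 16.1% lower over all tested genes in that fit. The number lower was also 1 in the fit of those libraries without the block, with no filter, and without SAG GFP+ replicate 1. Elf5, too low to test, averaged 0.573 and 0.168 CPM and was at 0 counts in SAG GFP+. In SAG GFP+ against RA GFP-, where Khdc3 was lower, the median of the 7 was 0.80 and 1, Krt8, was called lower. Over all tested genes 12% were called higher and 16.5% lower there. SAG GFP+ replicate 1 stood apart for some of these genes, as for Cdx2 at 47.5 CPM against 5.06 and 3.97 CPM. With it left out, 2 of the list were called higher and 3 lower than in RA GFP-. The part of such cells in the level of Khdc3 was not tested.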

How the data were processed

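Libraries were made from poly(A) RNA with a directional kit, per the labels' protocols. The authors deposited 1 table of raw counts by Ensembl gene (54532 genes, 24114 at 0 throughout), which are whole numbers and not normalized. The submitters' processing notes name GRCm38, Bowtie2 2.3.4.1, Trim Galore 0.5.0 and, for counting, featureCounts with Subread 1.6.2. The sources used here do not give the strand setting, the annotation release or how multi-mapped reads were handled.

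Symbols, exon lengths and neighbours came from GENCODE for GRCm38. Genes passing filterByExpr (minimum count 10) were fitted with edgeR 4.0.16 (R 4.3.3, limma 3.58.1) on all 9 libraries with 1 mean for each group, TMM factors (0.9717 to 1.029) and quasi-likelihood tests, with Benjamini-Hochberg adjustment over 16772 genes. A call is an adjusted p under 0.05. RA GFP+ was compared with RA GFP-, and SAG GFP+ with each. The SE is the log2 fold change divided by the root of the test's F. CPM per kilobase uses the union of exons. Likeness used log2 CPM with a prior count of 2. Counts of 0 were set against 3 counts over the group. The fit was tested on simulated data.

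The 6 genes and the lists were chosen with earlier results of these data known. Named were all 6, the 2 called genes with the smallest adjusted p of each list, both neighbours and the 5 most alike genes, of which some are not reported here; others (Duxf3, Uhrf1, Sox2, Pou5f1, Nanog, Dazl, Ddx4, Zbed3, Map1lc3b, Tet3, Krt8, Eomes, Cdx2, Elf5, Gata4, Pdgfra, Tcstv1 and genes at 0) were chosen after their values were seen.

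Same-numbered RA GFP- and RA GFP+ libraries deviated together from their group means (correlations across genes of 0.273, 0.307 and 0.347), so the numbers pair them, a pairing taken from the data, since the labels say only that replicates are biological. A fit of the 6 RA libraries with the replicate number as a block called 5240 genes, against 2838 without. Numbers did not pair SAG with RA libraries (r from -0.0816 to 0.242). Alternatives were DESeq2 1.42.0, other scalings, no filter, fits of the groups compared, replicate blocks and leaving out each library.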

Additional observations from a re-analysis of the deposited data

How the results depend on the processing

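The 6 genes kept their direction and their call in all 16 alternatives of each of the 3 comparisons. Between the RA sorts Khdc3 ran from 2.54 to 3.10 on the log2 scale and Dppa4, the smallest difference, from -1.52 to -1.02. The number of genes called between the RA sorts was 2838, and 5240 with the replicate block in a fit of the 2 groups compared, which left out 3 libraries. Leaving out 1 library gave 1783 genes (without RA GFP+ replicate 2) to 3368 genes between the RA sorts, 2747 to 4972 (4117 with all) between the GFP+ groups and 3365 to 5876 (4787 with all) for SAG GFP+ against RA GFP-. The replicate block changed the call of no member. Of the neighbours, Nectin3 between the RA sorts (-0.00 as reported) was 0.01 with no filter, 0.00 with either replicate block, and -0.12 to 0.09 with 1 library left out. Atp5g1 between the GFP+ groups (-0.03) was -0.17 to 0.10 with 1 library left out, and between the RA sorts it was called lower with either replicate block (adjusted p = 0.00906 and 0.00551, edgeR quasi-likelihood test), with no filter and without RA GFP- replicate 3. The causes were not tested. Under SAG, depth limits Khdc3, Ooep and Calcoco2 to at most 1 read over 3 libraries, so their ratios hold as bounds or wide intervals, and no difference among them there was detectable.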
